A study of Mus musculus with 4 samples.

Results

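The BCL2 family comprises the proteins that hold back or carry out the mitochondrial route of cell death. Survival proteins (BCL2, BCL-XL, MCL1 and A1) bind and restrain the pore formers BAX and BAK at the outer mitochondrial membrane. The BH3-only proteins (BIM, BID, PUMA and NOXA) occupy the survival proteins or activate the pore formers, after which the membrane is breached and cytochrome c starts the caspase cascade. Macrophages depend on M-CSF for survival, and BIM is known for its part in the death of osteoclasts, which are short-lived cells. The genes described here were chosen by symbol as the family's main survival genes (Mcl1, Bcl2a1b, Bcl2l1, Bcl2), pore formers (Bax, Bak1) and BH3-only genes (Bid, Bbc3, Pmaip1, Bcl2l11), which are 10 of the 34745 genes in the deposited table.

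RNA was measured in bone marrow-derived macrophages (BMMs), the precursors that RANKL turns into osteoclasts, to compare cells given dimethyl itaconate (DI), an ester of the macrophage metabolite itaconate, with cells given vehicle. All cells carried the genotype wt, came from male C57BL/6 mice that were 8 weeks old, and spent 12 h in medium without FBS. They were then given RANKL at 100 ng/mL for 24 h, together with DI (RANKL+DI, 2 libraries, labelled 20 mM) or with vehicle (RANKL+Veh, 2 libraries). There was no library from cells without RANKL, and the labels do not say whether the libraries of a group came from separate mice or cultures, so the p-values measure only the spread between these libraries.

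Total counts lay between 16085692 and 19403480 per library, and the 13 genes of the mitochondrial genome took 2.75% to 2.99% of them. All 9 macrophage markers (among them Csf1r, Adgre1 and Lyz2) passed the filter on low counts and summed to 28469 and 29281 CPM (counts scaled to library totals that TMM adjusts) with DI and to 23159 and 22300 CPM with vehicle, mostly from Lyz2. Of these 9, 5 were called higher with DI and 3 lower (Cd14, Fcgr1 and Cx3cr1). Of 10 osteoclast markers 8 were tested, of which 2 were higher and 5 lower with DI, and Calcr had no count in any library. Among all 12590 tested genes, 7.14% were called higher and 7.70% lower. The neutrophil list summed to 29.6 and 28.4 CPM with DI against 22.4 and 23.8 CPM with vehicle. Most of this came from Csf3r, and Ly6g and Retnlg were at 0. Of its 11 genes 5 were tested, and 1 of these, Csf3r, was called higher with DI and 0 lower. B cell and mast cell lists stayed at or under 0.841 CPM and T and NK cell markers at or under 3.002 CPM. Stromal markers lay between 39.6 and 50.01 CPM, and of these 7 markers 4 were tested and 0 called. The part of these marker levels in the results below was not tested, and in bulk RNA fewer cells of a type and less RNA per cell cannot be told apart.

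With DI, 2 survival genes rose, Bcl2a1b 1.51-fold and Bcl2 1.46-fold, and the BH3-only gene Bcl2l11 fell to 0.793 of its vehicle level. Both rises kept their calls with any library left out, whereas the fall of Bcl2l11 lost its call each time (adjusted p 0.0548 to 0.0799 in edgeR, log2 fold change -0.37 to -0.30). The other 7 genes were not called, including the most abundant survival gene, Mcl1, and both pore formers. All 10 passed the filter on low counts, and 3 had an adjusted p under 0.05 in edgeR's quasi-likelihood test, beside 14.8% of the 12590 genes tested. In the upward direction this was 2 of 10 beside 7.14%, and in the downward direction 1 of 10 beside 7.70%. At an unadjusted p under 0.05 there were 3 higher and 2 lower, beside 30.0% of all tested genes in either direction, and in 6 of 10 genes the libraries of the groups did not overlap, beside 58.6%. The median log2 fold change of the members was 0.022, against 0.0012 for all tested genes. The summed level of the members was 1332 and 1379 CPM with DI and 1362 and 1337 CPM with vehicle, mostly from Mcl1.

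**Figure D1:**
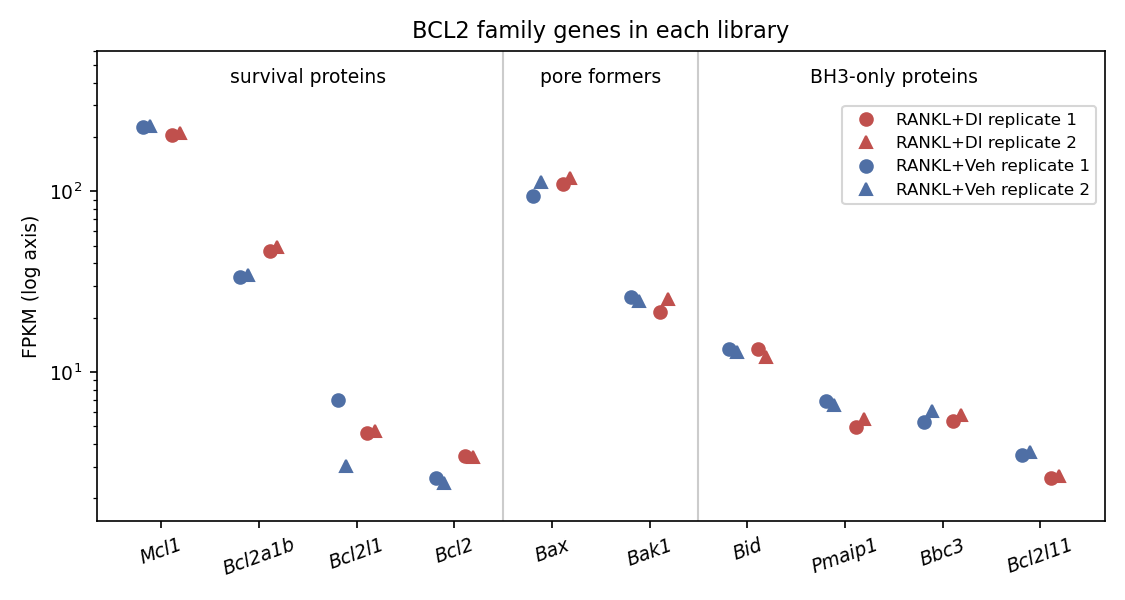
Deposited FPKM of the 10 BCL2 family genes (log axis) in each library, red for RANKL+DI and blue for RANKL+Veh, circles for replicate 1 and triangles for replicate 2, ordered by role and by level with vehicle. Mcl1 lay between 204 and 230 and Bcl2 between 2.44 and 3.45, and the blue points of Bcl2l1 stood apart from each other at 7.03 and 3.03. These values carry no TMM adjustment.

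Per length of transcript, the levels of the family spanned a wide range. Mean FPKM (fragments scaled by transcript length and by library total) in RANKL+Veh was 229 for Mcl1, 104 for Bax, 34.1 for Bcl2a1b, 25.4 for Bak1 and 13.2 for Bid. Pmaip1 (6.75), Bbc3 (5.68), Bcl2l1 (5.03), Bcl2l11 (3.55) and Bcl2 (2.51) followed at lower FPKM. A survival gene thus stood both at the top of the order and at its foot. With DI the first 5 places were the same (208 for Mcl1, 114 for Bax, 47.9 for Bcl2a1b, 23.3 for Bak1 and 12.7 for Bid). The order below them changed in 2 places, since Bbc3 (5.56) stood above Pmaip1 (5.24) and Bcl2 (3.41) above Bcl2l11 (2.62). These places hold for the lengths behind the deposited FPKM, which were 0.551 (Bax) to 2.60 (Bcl2l1) times the merged exon lengths of GENCODE M21. Per GENCODE length Mcl1 and Bax stayed first and second and Bcl2 was last in both groups (3.73 with DI, below Bcl2l11 at 5.07), while Bcl2l1 stood sixth and Bak1 above Bcl2a1b with vehicle. Neighbours whose libraries overlapped in deposited FPKM were Bbc3 and Bcl2l1, and Bcl2l1 and Bcl2l11, with vehicle, and Pmaip1 and Bbc3 with DI. FPKM carry no TMM adjustment, so a difference between the groups in FPKM is not the fold change that was tested. Mean levels of Bid and Bbc3, for example, were lower with DI in FPKM but higher in CPM.

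Bcl2a1b encodes A1, a survival protein of myeloid and lymphoid cells and a known NF-kB target. In the mouse the gene exists as near-identical copies on chromosome 9, and Bcl2a1b (ENSMUSG00000089929) lies at chr9:89199209-89207827 of GRCm38 on the forward strand. Bcl2a1a (ENSMUSG00000102037) and Bcl2a1d (ENSMUSG00000099974) have coding sequences of the same length in GENCODE M21, 516 bases. Bcl2a1b and Bcl2a1d differ at 6 of these positions (98.8% identity), Bcl2a1a and Bcl2a1b at 11 (97.9%), and Bcl2a1a and Bcl2a1d at 7 (98.6%). The first 120 coding bases are shown, since no other stretch of this length holds more positions where the copies differ. Capitals stand at these 7 positions:
Bcl2a1a: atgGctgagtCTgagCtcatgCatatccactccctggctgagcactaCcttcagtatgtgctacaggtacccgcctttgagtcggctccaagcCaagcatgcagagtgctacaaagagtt
Bcl2a1b: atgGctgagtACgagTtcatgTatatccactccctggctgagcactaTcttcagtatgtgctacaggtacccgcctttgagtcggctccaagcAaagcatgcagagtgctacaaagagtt
Bcl2a1d: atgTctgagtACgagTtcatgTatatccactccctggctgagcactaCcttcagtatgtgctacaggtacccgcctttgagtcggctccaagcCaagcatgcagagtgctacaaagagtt
Of all stretches of 50 bases in the annotated Bcl2a1b transcript, 57.6% also occur letter for letter in Bcl2a1a or Bcl2a1d, and this share was 31.1% at 100 bases and 14.2% at 150 bases. How the deposited counts treated reads that match several copies is not given in the sources used here, so a value of a single copy is uncertain.

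Bcl2a1b had 680 and 780 counts with DI, or 39.6 and 41.6 CPM, and 493 and 454 counts with vehicle, or 26.5 and 27.3 CPM. Both RANKL+DI libraries lay above both RANKL+Veh libraries. The mean was 40.6 ± 1.40 CPM with DI and 26.9 ± 0.559 CPM with vehicle (SD, n = 2 libraries each). The log2 fold change was 0.60 (SE 0.068, 95% interval 0.43 to 0.76), with an adjusted p of 0.0042 in the edgeR quasi-likelihood test. The gene shares 49.1% of its exon sequence with Gm29094 on the same strand, whose row held 20 and 8 counts in RANKL+DI and 14 and 19 in RANKL+Veh.

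Bcl2a1d, the copy with the next most counts, received 245 and 287 counts in the RANKL+DI and 251 and 194 in the RANKL+Veh libraries. On the CPM scale these were 14.3 and 15.3 against 13.5 and 11.6, without overlap between the groups, and the log2 fold change was 0.23 (SE 0.118) with an adjusted p of 0.248 in edgeR. Bcl2a1a, with 7 and 8 counts under DI and 12 and 8 under vehicle, was not tested, and Bcl2a1c had no count in any library. Bcl2a1b held 73.0% (95% Wilson interval 70.0 to 75.7) and 72.6% (69.8 to 75.1) of the counts of all copies with DI, and 65.2% (61.7 to 68.5) and 69.2% (65.6 to 72.6) with vehicle. These intervals cover counting error only, and that of RANKL+Veh replicate 2 overlapped those of both RANKL+DI libraries. Whether the copies changed by different amounts was not tested.

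With the copies summed, RANKL+DI held 932 and 1075 counts and RANKL+Veh 756 and 656. This sum does not depend on how reads were split among the summed copies. Reads that were dropped, counted more than once or assigned to Gm29094 could still change it. The sum was 55.8 ± 2.15 CPM with DI and 40.0 ± 0.851 CPM with vehicle (SD, n = 2 libraries each), a 1.40-fold rise. Its log2 fold change of 0.48 (SE 0.066) had an adjusted p of 0.00748 in the edgeR fit with the copies replaced by their sum.

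**Figure D2:**
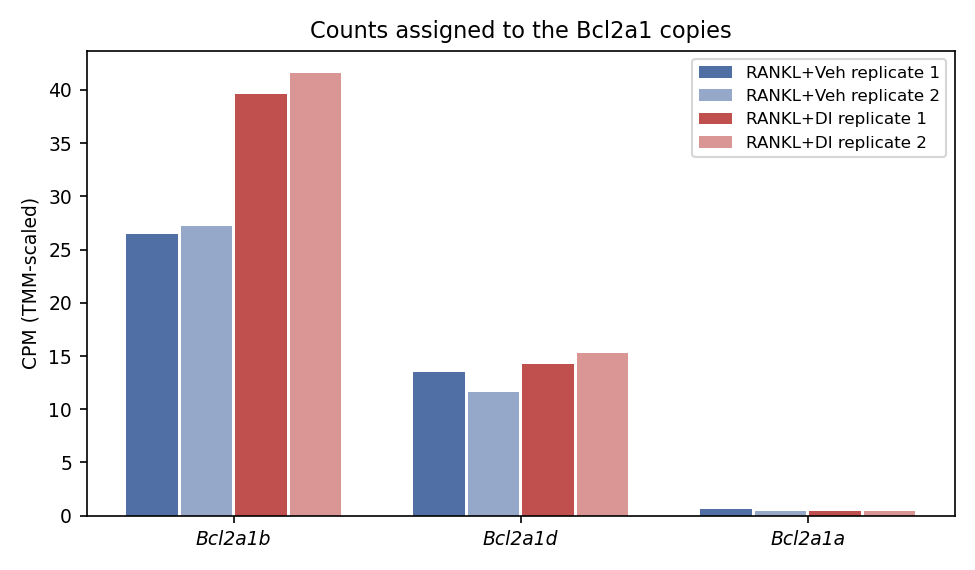
CPM (TMM-scaled counts) assigned to each Bcl2a1 copy, with 1 bar per library, blue for RANKL+Veh and red for RANKL+DI. The RANKL+DI bars of Bcl2a1b stood at 39.6 and 41.6 and those of RANKL+Veh at 26.5 and 27.3, while Bcl2a1d stayed between 11.6 and 15.3 and Bcl2a1a lay close to 0.

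The copies also share promoter letters, which are shown because Bcl2a1b and its neighbours are counted together above. The 80 bases below come from the RefSeq windows on GRCm38.p6 (250 bases before to 50 after each annotated start), each read along the gene's own strand, at chr9:88956780-88956859 (+) for Bcl2a1a, chr9:89199089-89199168 (+) for Bcl2a1b and chr9:88731905-88731984 (-) for Bcl2a1d. Capitals mark an AP-1 word (TGANTCA) and a PU.1 word (GAGGAAGT), named for factors that are known in the macrophage lineage:
Bcl2a1a: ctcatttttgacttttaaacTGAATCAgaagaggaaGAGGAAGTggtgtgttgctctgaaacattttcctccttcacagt
Bcl2a1b: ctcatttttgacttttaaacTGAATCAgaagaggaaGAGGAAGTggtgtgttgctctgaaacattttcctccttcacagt
Bcl2a1d: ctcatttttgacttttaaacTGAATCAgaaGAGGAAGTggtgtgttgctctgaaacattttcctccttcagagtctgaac
Both words began between 104 and 164 bases before the start in the 3 copies. Searched on both strands, the AP-1 word was in 7.81% and the PU.1 word in 3.20% of all 32851 windows. A match of letters is a description and not a bound site.

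Bcl2 encodes the founding survival protein of the family and lies at chr1:106538178-106714274 of GRCm38 (ENSMUSG00000057329), on the reverse strand. It had 617 and 656 counts with DI, or 35.9 and 35.0 CPM, and 466 and 394 counts with vehicle, or 25.0 and 23.7 CPM. Again both RANKL+DI libraries lay above both RANKL+Veh libraries. The means were 35.5 ± 0.679 and 24.3 ± 0.963 CPM (SD, n = 2 libraries each), with a log2 fold change of 0.54 (SE 0.072, 95% interval 0.37 to 0.72) and an adjusted p of 0.00686 in edgeR.

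Mcl1 encodes a survival protein with a very short half-life that myeloid cells require, and lies at chr3:95658788-95663176 (ENSMUSG00000038612). It had 14677 and 16502 counts with DI, or 855 and 880 CPM, and 16489 and 14913 counts with vehicle, or 885 and 895 CPM. The RANKL+DI libraries lay below the RANKL+Veh libraries by a small margin. The log2 fold change of -0.037 (SE 0.034, 95% interval -0.12 to 0.046) had an adjusted p of 0.521 in edgeR, an interval that spans folds of 0.920 to 1.03. Scaled by library size only, which moved the median of all tested genes to -0.10, the log2 fold change of Mcl1 was -0.14 with an adjusted p of 0.0379.

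Bcl2l1, the gene of BCL-XL, lies at chr2:152780668-152831728 (ENSMUSG00000007659) and is the member whose replicates differed most. It had 973 and 1093 counts with DI, or 56.7 and 58.3 CPM, and 1504 and 581 counts with vehicle, or 80.7 and 34.9 CPM. The RANKL+DI libraries thus lay between the RANKL+Veh libraries. The means of 57.5 ± 1.13 and 57.8 ± 32.4 CPM (SD, n = 2 libraries each) gave a log2 fold change of -0.011 (SE 0.349, 95% interval -0.87 to 0.84) and an adjusted p of 0.988 in edgeR. Without RANKL+Veh replicate 1 the log2 fold change was 0.72 with an adjusted p of 0.0109, and without RANKL+Veh replicate 2 it was -0.49 with an adjusted p of 0.0206, so the direction rested on which vehicle library was kept.

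The gap between the RANKL+Veh replicates of Bcl2l1 was 1.21 on the log2 scale. Of the 9275 genes whose average log2 CPM exceeded 3, 45 (0.485%) had a gap at least as large, and the median absolute gap was 0.078. In the RANKL+DI replicates the gap of Bcl2l1 was -0.040, which 6557 of these genes equalled or exceeded in size. The other members had gaps of at most 0.256 with vehicle (Bax) and 0.229 with DI (Bak1) in absolute value. The counts add all transcripts of the gene, so the long and short splice forms of Bcl2l1, which are known to have opposite roles, were not separated.

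**Figure D3:**
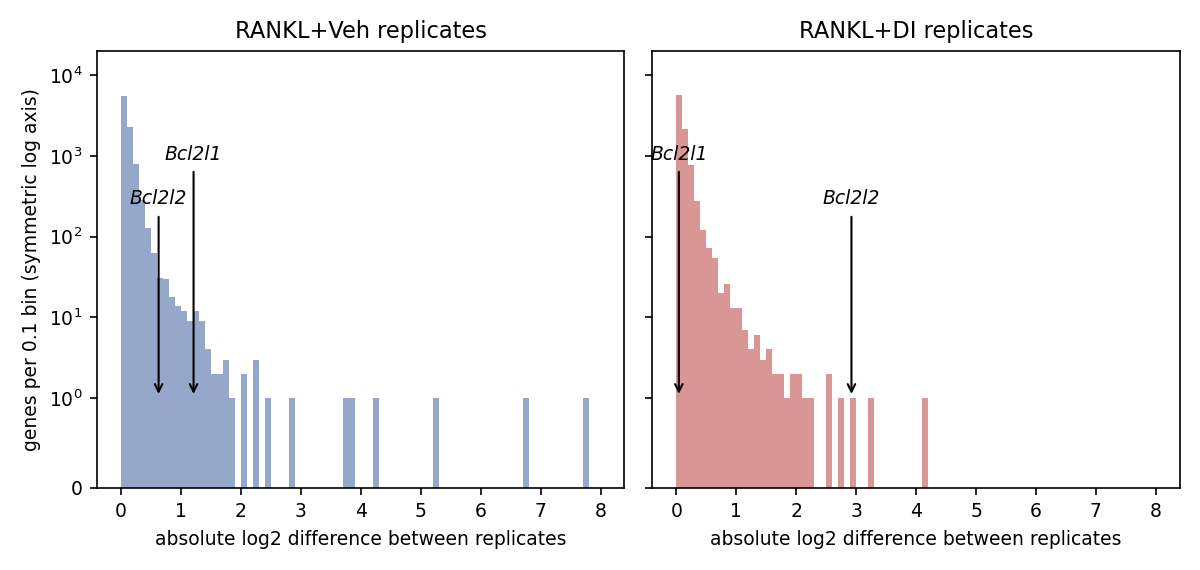
Number of genes (symmetric log axis) per 0.1 of absolute log2 difference between replicates, for 9275 genes with an average log2 CPM over 3, with RANKL+Veh on the left and RANKL+DI on the right. Arrows mark Bcl2l1, at 1.21 with vehicle and 0.040 with DI, and Bcl2l2, at 0.62 with vehicle and 2.92 with DI.

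The pore formers, whose proteins perforate the mitochondrial membrane, were not called. Bax (ENSMUSG00000003873, chr7:45461695-45466898) had 1700 and 1990 counts with DI, or 99.0 and 106 CPM, and 1475 and 1575 counts with vehicle, or 79.2 and 94.6 CPM. The groups did not overlap, and the vehicle libraries lay farther from each other than the nearest libraries of the groups did. The log2 fold change was 0.24 (SE 0.093, 95% interval 0.014 to 0.47), with an unadjusted p of 0.0409 and an adjusted p of 0.147 in edgeR. Without RANKL+Veh replicate 2 it was 0.37 with an adjusted p of 0.0471. Of its transcript, 17.6% is also found in Gm45808 at 100% identity, so its count is uncertain to that extent. Bak1 (ENSMUSG00000057789, chr17:27019810-27029009) had 1680 and 2151 counts with DI, or 97.9 and 115 CPM, and 2068 and 1739 with vehicle, or 111 and 104 CPM. The groups overlapped, with a log2 fold change of -0.019 (SE 0.084, 95% interval -0.23 to 0.19) and an adjusted p of 0.913 in edgeR. Ggnbp1 overlaps 18.2% of the exon sequence of Bak1 on the opposite strand, and its row held 12 to 20 counts.

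Bcl2l11 encodes BIM, the BH3-only protein that binds all survival proteins, and lies at chr2:128126038-128162547 (ENSMUSG00000027381) on the forward strand. It had 717 and 799 counts with DI, or 41.8 and 42.6 CPM, and 968 and 907 counts with vehicle, or 52.0 and 54.5 CPM. Both RANKL+DI libraries lay below both RANKL+Veh libraries. The means were 42.2 ± 0.594 and 53.2 ± 1.76 CPM (SD, n = 2 libraries each), with a log2 fold change of -0.33 (SE 0.064, 95% interval -0.49 to -0.18) and an adjusted p of 0.0218 in edgeR. The call was lost whichever library was left out: the log2 fold change and adjusted p were -0.32 and 0.0742 without RANKL+DI replicate 1, -0.35 and 0.0641 without RANKL+DI replicate 2, -0.37 and 0.0548 without RANKL+Veh replicate 1, and -0.30 and 0.0799 without RANKL+Veh replicate 2. The isoforms of BIM were counted together.

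FOXO factors are known activators of Bcl2l11. The 250 bases before its annotated start are therefore shown, from RefSeq on GRCm38.p6 at chr2:128125788-128126037 (+), with a match to the FOXO word (TGTTTAC) on the opposite strand in capitals:
Bcl2l11: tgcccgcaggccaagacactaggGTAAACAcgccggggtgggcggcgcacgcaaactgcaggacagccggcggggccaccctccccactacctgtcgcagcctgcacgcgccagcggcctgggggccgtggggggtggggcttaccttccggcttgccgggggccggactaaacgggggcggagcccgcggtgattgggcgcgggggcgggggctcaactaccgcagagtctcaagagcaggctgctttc
The word lay 227 bases before the start. It was in 3.65% of all windows and in 2 of the 14 windows of 9 members, the other belonging to Bbc3. Among the 10 words searched on both strands, the antioxidant response element (TGACNNNGC, 12.4% of all windows) was found in 1 member window, of Bcl2l1, NF-kB (8.46%) in 2, of Bcl2l1 and Bbc3, and the p53 decamer (8.36%) in 1, of Bax. The PU.1 word was also in a window of Bak1. No member window held the interferon-stimulated response element (3.44%), the cyclic AMP response element (TGACGTCA, 1.79%), the E2F word (TTTGGCGC, 0.514%) or the C/EBP word (TTGCGCAA, 0.183%), which says only that these letters are not in these windows.

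The other BH3-only genes were not called. Pmaip1 (NOXA, which binds MCL1 and A1) lies at chr18:66458604-66465550 (ENSMUSG00000024521). It had 234 and 284 counts with DI, or 13.6 and 15.1 CPM, and 328 and 281 with vehicle, or 17.6 and 16.9 CPM. The RANKL+DI libraries were lower without overlap, with a log2 fold change of -0.26 (SE 0.104, 95% interval -0.51 to -0.0055), an unadjusted p of 0.0466 and an adjusted p of 0.159 in edgeR. Bbc3 (PUMA, ENSMUSG00000002083, chr7:16309616-16318205) had 275 and 325 counts with DI, or 16.0 and 17.3 CPM, and 274 and 283 with vehicle, or 14.7 and 17.0 CPM. Bid (ENSMUSG00000004446, chr6:120891930-120916853), whose protein links death receptors to the mitochondria once caspases cut it, had 1304 and 1282 counts with DI, or 76.0 and 68.4 CPM, and 1313 and 1138 with vehicle, or 70.5 and 68.3 CPM. In both the groups overlapped. The log2 fold changes were 0.075 (SE 0.114, adjusted p 0.713) for Bbc3 and 0.056 (SE 0.071, adjusted p 0.654) for Bid in edgeR, with 95% intervals of -0.20 to 0.36 and -0.12 to 0.23. Bcl2l13 overlaps 17.7% of the exon sequence of Bid on the opposite strand, with 850 to 959 counts, and without strand in the counting the reads there cannot be told apart.

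**Figure D4:**
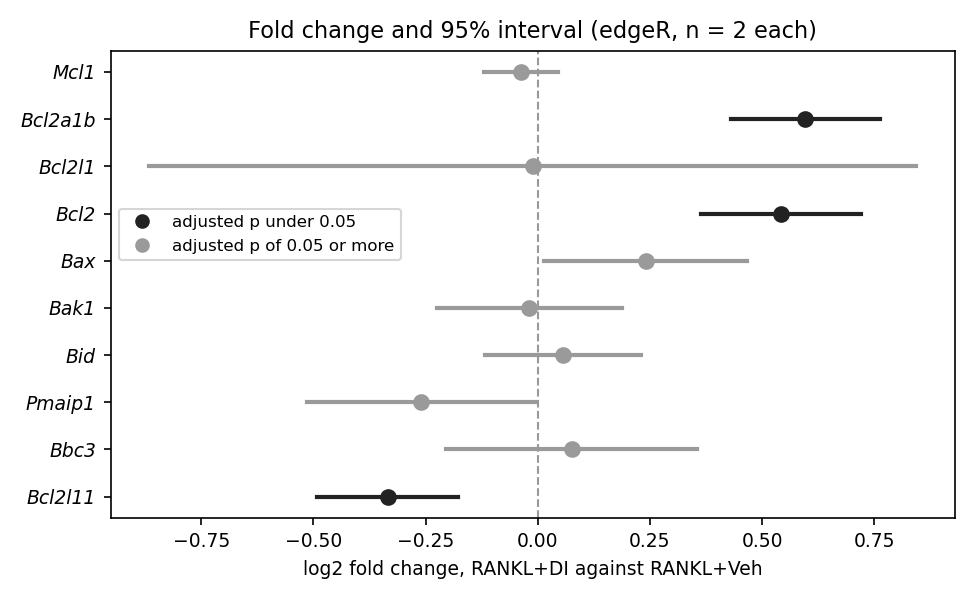
Log2 fold change of RANKL+DI against RANKL+Veh with its 95% interval for each BCL2 family gene (edgeR, n = 2 libraries each), black at an adjusted p under 0.05 and grey otherwise. Bcl2a1b (0.60) and Bcl2 (0.54) lay to the right of 0 and Bcl2l11 (-0.33) to the left, and the interval of Bcl2l1 ran from -0.87 to 0.84.

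Ratios of FPKM within a library need no scaling between libraries and were given no test. They restate the values of the single genes above, so a gap between the groups is not separate support. Mcl1 to Bcl2l11 was 78.9 and 79.6 with DI and 65.7 and 63.4 with vehicle, without overlap. Bcl2 to Bax was 0.0314 and 0.0286 with DI and 0.0274 and 0.0217 with vehicle, again without overlap. Bcl2l1 to Bcl2l11 was 1.77 and 1.78 with DI and 2.03 and 0.835 with vehicle, and here the vehicle libraries enclosed those with DI. Of the ratios chosen after the values were seen, Bcl2 to Bcl2l11 was 1.33 and 1.27 with DI against 0.745 and 0.672 with vehicle. Bcl2a1b to Bcl2l11 was 18.02 and 18.55 with DI against 9.68 and 9.51 with vehicle. Both divide a gene called higher by the gene called lower, so their separation follows from the choice. The size of each ratio depends on the gene lengths used, while its fold between libraries does not. Per GENCODE M21 exon length, Bcl2 to Bcl2l11 was 0.755 and 0.720 with DI against 0.422 and 0.381 with vehicle.

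The genes whose values over the 4 libraries lay closest to those of Bcl2a1b, the member with the smallest p, were Ctla2b, Igf1 and Pcx. Their Euclidean distances on centred log2 CPM were 0.015, 0.022 and 0.023 over the 9274 other genes whose average log2 CPM exceeded 3. Their log2 fold changes were 0.60, 0.58 and 0.61. They were picked for this likeness, so fold changes near that of Bcl2a1b follow from the choice and are a description only.

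Among 16 other genes of the family, 10 were tested, with a median log2 fold change of 0.21. With DI 1 was higher and 0 were lower, beside 7.14% and 7.70% of all tested genes. At an unadjusted p under 0.05, 3 were higher and 0 lower in edgeR, beside 30.0% of all tested genes in either direction. The gene called was Bnip3, a mitochondrial protein with a BH3-like stretch that marks mitochondria for removal, at 36.7 ± 0.362 CPM with DI and 26.4 ± 0.0777 CPM with vehicle (SD, n = 2 libraries each). Its log2 fold change was 0.47 (SE 0.066) with an adjusted p of 0.00778 in edgeR. Near-identical sequence in pseudogenes, 1 of which covers 94.2% of its transcript at 98.3% identity, makes this count uncertain. Bcl2l2, which encodes the survival protein BCL-W, stood at 85 and 717 counts in RANKL+DI and at 415 and 240 in RANKL+Veh. Its gap of -2.92 on the log2 scale between the RANKL+DI replicates was equalled or exceeded in size by 3 of the 9275 genes, itself included. Names in this and the next 5 paragraphs with an absolute log2 fold change under 0.5, as well as Bcl2l2 and Aen, were chosen after their values were seen.

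The 14 genes of the apoptosome, the caspases and the released mitochondrial factors were all tested. Their median log2 fold change was -0.056, and 0 were higher and 1 lower, beside 7.14% and 7.70% of all tested genes. At an unadjusted p under 0.05, 1 was higher and 2 were lower in edgeR, beside 30.0% of all tested genes in either direction. DESeq2 called none of the 14 at an adjusted p under 0.05. Casp2, an initiator caspase, fell from 28.5 ± 2.0 to 22.0 ± 0.745 CPM (log2 fold change -0.37, SE 0.088, adjusted p 0.0417 in edgeR, n = 2 libraries each). Its call was lost whichever library was left out, with log2 fold changes of -0.41 (adjusted p 0.0825) and -0.34 (0.144) without RANKL+DI replicate 1 and 2, and -0.30 (0.147) and -0.44 (0.0603) without RANKL+Veh replicate 1 and 2.

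All 9 inhibitor of apoptosis and other caspase inhibitor genes were tested, with a median log2 fold change of -0.043. With DI 1 was higher and 2 were lower, beside 7.14% and 7.70% of all tested genes. Birc5 (survivin), which serves chromosome segregation in dividing cells, fell from 75.7 ± 2.17 to 47.9 ± 3.15 CPM (log2 fold change -0.66, SE 0.071, adjusted p 0.00363 in edgeR, n = 2 libraries each). Birc3 (cIAP2), a ubiquitin ligase of TNF receptor complexes, fell from 145 ± 4.68 to 117 ± 3.87 CPM (log2 fold change -0.31, adjusted p 0.0127 in edgeR). Naip2, known as an inflammasome sensor of bacterial proteins, rose from 104 ± 4.04 to 128 ± 3.57 CPM (log2 fold change 0.31, adjusted p 0.0146 in edgeR). Without RANKL+Veh replicate 1 the adjusted p was 0.0611 for Birc3 (log2 fold change -0.27) and 0.0653 for Naip2 (0.27). Naip2 shares part of its sequence with Naip1 (13.7% of its transcript), so reads may have been split between them.

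Death receptors and their adaptors gave 11 tested genes of 12, with a median log2 fold change of 0.0070. With DI 2 were higher and 2 lower, beside 7.14% and 7.70% of all tested genes. Tnfrsf1b (TNFR2), a TNF receptor without a death domain, rose from 584 ± 9.93 to 900 ± 6.81 CPM (log2 fold change 0.62, SE 0.034, adjusted p 5.60e-04 in edgeR, n = 2 libraries each). Tnfrsf1a (TNFR1), which does carry a death domain, rose from 140 ± 0.855 to 159 ± 0.607 CPM (log2 fold change 0.18, adjusted p 0.0331 in edgeR). Ripk3, the kinase of necroptosis, fell from 59.1 ± 0.419 to 49.0 ± 0.542 CPM (log2 fold change -0.27, adjusted p 0.0334 in edgeR). Tnfsf10 (TRAIL), a death ligand, stood at 7 and 8 counts in RANKL+DI and at 20 and 23 in RANKL+Veh, with a log2 fold change of -1.53 (SE 0.381, adjusted p 0.0482 in edgeR). The calls of Tnfrsf1a, Ripk3 and Tnfsf10 were each lost when any 1 of the 4 libraries was left out, with log2 fold changes of 0.18 to 0.19, -0.28 to -0.26 and -1.71 to -1.35 and adjusted p-values of 0.0961 to 0.124, 0.0929 to 0.122 and 0.107 to 0.197. The call of Tnfrsf1b was kept in each of these fits.

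The p53 pathway, which is known to act on Bax, Bbc3 and Pmaip1 among the members, gave 14 tested genes of 15. Their median log2 fold change was 0.29, and 7 were higher and 1 was lower. Among all tested genes the shares called higher and lower were 7.14% and 7.70%. Gdf15, a stress-induced cytokine, rose from 20.4 ± 1.31 to 38.0 ± 2.63 CPM (log2 fold change 0.90, SE 0.089, adjusted p 0.00298 in edgeR, n = 2 libraries each). Phlda3, an inhibitor of AKT, rose by a log2 fold change of 0.53, and Trp53inp1, a partner of p53, by 0.51, with adjusted p-values of 0.00498 and 0.0120 in edgeR. Zmat3 (0.43), Cdkn1a (0.35), which encodes the cell cycle inhibitor p21, Sesn2 (0.34) and Ccng1 (0.23) also rose on the log2 scale. Trp53 itself fell from 110 ± 1.01 to 88.6 ± 4.23 CPM (log2 fold change -0.31, adjusted p 0.0162 in edgeR). Its call was lost without RANKL+DI replicate 1 (-0.26, adjusted p 0.0559), RANKL+Veh replicate 1 (-0.30, 0.0649) and RANKL+Veh replicate 2 (-0.32, 0.0633). Sesn2 lost its call whichever library was left out (log2 fold change 0.31 to 0.38, adjusted p 0.0539 to 0.115), and Ccng1 did so without RANKL+DI replicate 2 (0.22, adjusted p 0.0507) and RANKL+Veh replicate 1 (0.20, 0.0592). Aen, a nuclease that p53 induces, stood at 811 and 933 counts in RANKL+DI and at 273 and 800 in RANKL+Veh and was not called (adjusted p 0.428 in edgeR). Trp53 also has a pseudogene that matches 20.2% of its transcript at 97.7% identity, and its count is uncertain to that extent.

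All 9 genes listed as regulators upstream of BH3-only genes, mostly transcription factors, were tested. With DI 1 was higher and 1 lower, beside 7.14% and 7.70% of all tested genes. Myc, a growth factor-induced regulator that sensitises cells to death, fell from 46.4 ± 7.24 to 25.4 ± 1.71 CPM (log2 fold change -0.87, SE 0.121, adjusted p 0.00778 in edgeR, n = 2 libraries each). Foxo3 rose from 97.4 ± 5.81 to 120 ± 7.17 CPM (log2 fold change 0.30, SE 0.067, adjusted p 0.0349 in edgeR). Its call was lost without RANKL+DI replicate 1 (0.24, adjusted p 0.107), RANKL+Veh replicate 1 (0.24, 0.128) and RANKL+Veh replicate 2 (0.36, 0.0511). Bcl2l11, the BH3-only gene that FOXO3 is known to activate, fell in the same libraries. Whether these changes are linked was not tested. The list for the turnover and chaperoning of BCL2 family proteins holds ubiquitin ligases of MCL1 and also the membrane channels Vdac1, Vdac2 and Vdac3. All 15 of its genes were tested. In edgeR 0 of them were called, beside 14.8% of all tested genes. At an unadjusted p under 0.05 in edgeR, 1 was higher and 2 were lower, beside 30.0% of all tested genes in either direction.

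**Figure D5:**
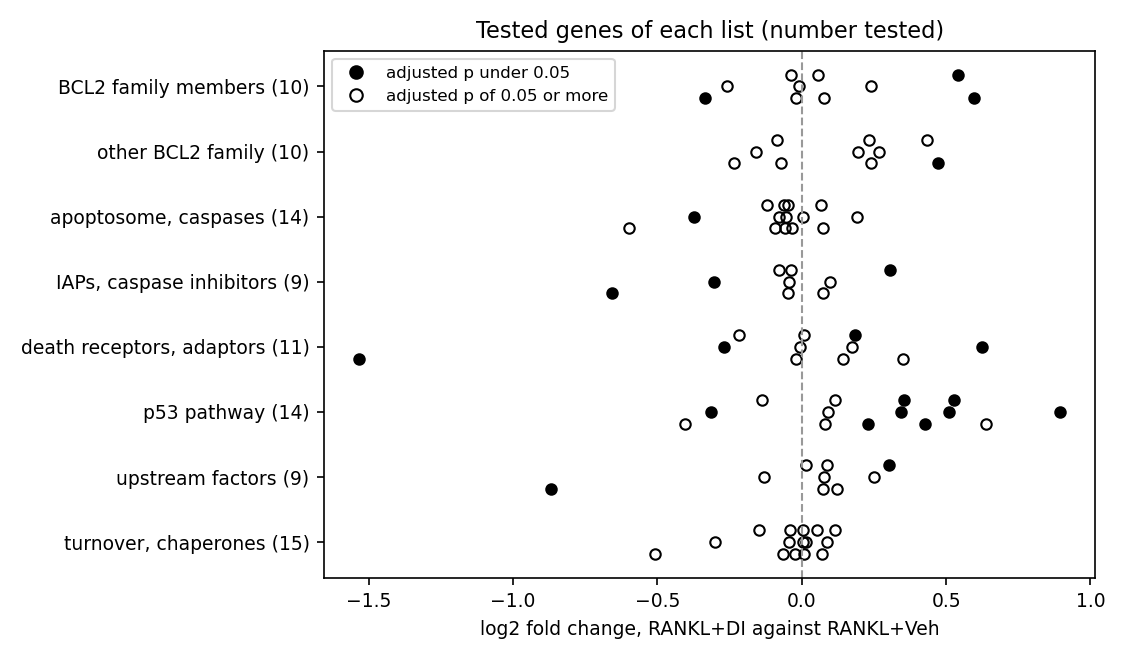
Log2 fold change of RANKL+DI against RANKL+Veh for each tested gene of the BCL2 family and of 7 further lists, with the number tested in parentheses. Filled points have an adjusted p under 0.05 (edgeR). These were 3 of the 10 members, 8 of the 14 p53 pathway genes and 0 of the 15 on the turnover and chaperone list. Among all tested genes the share was 14.8%.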

How the data were processed

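RNA was measured in 4 BMM libraries, grouped by their labels as RANKL+DI (n = 2) and RANKL+Veh (n = 2). The labels give DI at 20 mM and the paper at 20 μM. The authors deposited counts of reads for each gene, not normalized, and FPKM values scaled by gene length and library total. A second table, which adds the authors' pathway annotation, was not used. Genome builds GRCm38 and mm10 are named in the submitters' processing notes, while the aligner, the counting program, its use of strand and the annotation release are not given in the sources used here.

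Counts were tested in R 4.3.3 with edgeR 4.0.16 (TMM factors, filterByExpr, quasi-likelihood fit with condition as its only term, 2 residual degrees of freedom before moderation), with Benjamini-Hochberg adjustment over 12590 genes and a threshold of 0.05. CPM are TMM-scaled, and 3 counts correspond to 0.160 to 0.180 CPM. Replicates differed by more than sampling noise (chi-square per degree of freedom 7.57 with DI and 7.74 with vehicle). The steps were tested on simulated data. Alternatives were DESeq2 1.42.0 (size factors, Wald test), upper quartile factors, library size only, no filter, at least 10 counts in every library, limma-voom (limma 3.58.1), edgeR's exact test, a replicate block and each library left out. The crossed pairing, the alternatives of the summed copies, levels per GENCODE exon length and 2 of the ratios were added after the data were seen.

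The members and lists were chosen with earlier results of these data known. Named genes were the members, list genes with an adjusted p under 0.05 and an absolute log2 fold change over 0.5 (at most 5 per list, by smallest p), the Bcl2a1 copies and the 3 genes nearest to the member with the smallest p. Rows were matched by gene identifier where a symbol stood on 2 rows or was stored as a date. Sequences came from GENCODE M21 and RefSeq GRCm38.p6, compared with BLAST+ 2.17.0 and Biopython 1.88.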

Additional observations from a re-analysis of the deposited data

How the results depend on the processing

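Bcl2 kept its rise and its call in all 15 alternatives run (log2 fold change 0.44 to 0.58), and Bcl2a1b in its 14 (0.49 to 0.63), beside 0.48 for the summed copies. Adjusted p-values ranged from 1.44e-04 to 0.0312 for Bcl2 and from 6.96e-06 to 0.0273 for Bcl2a1b. Bcl2l11 fell in every alternative but lost its call with each library left out (-0.37 to -0.30). Each fit without 1 library assumes that the lone library of a group varies like the other group, and with fewer libraries fewer genes were called in all (1087 to 1394 against 1868).

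Library size only called 2 members lower instead of 1, with Mcl1 at -0.14, and gave 548 genes higher and 1932 lower against 899 and 969 with TMM factors. It turned the sign of Bid (-0.048) and Bbc3 (-0.028). At the same setting 2 apoptosome and 2 turnover genes were called. An unadjusted p called 2 members lower. Bcl2l1 turned sign under limma-voom (0.090). No filter and the edgeR exact test each called 2 apoptosome genes, and the DESeq2 Wald test called 0. Of the death receptor list, the DESeq2 Wald test called 1 and the exact test 2. Tnfrsf1a, Ccng1, Sesn2 and Foxo3 lost their calls with library size only, and DESeq2 gave no adjusted p for Tnfsf10. The cause of these changes was not tested.

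Leaving out each library gave 2 to 3 members higher and 0 to 1 lower. The log2 fold change then ranged from -0.49 to 0.72 for Bcl2l1, from 0.12 to 0.37 for Bax, from -0.14 to 0.093 for Bak1, from -0.020 to 0.13 for Bid and from -0.027 to 0.18 for Bbc3. The genes called ranged from 1 to 3 for the other family genes, 0 to 0 for the apoptosome, 1 to 3 for the IAP list, 1 to 1 for death receptors, 5 to 7 for the p53 pathway and 1 to 2 for the upstream factors.

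Per GENCODE M21 exon length, an alternative chosen after seeing the data, the levels with DI and vehicle were 245 and 269.8 for Mcl1, 62.8 and 57.1 for Bax, 42.6 and 46.4 for Bak1, 19.6 and 20.2 for Bid, 12.1 and 13.1 for Bcl2l1, 7.57 and 7.73 for Bbc3, 5.07 and 6.86 for Bcl2l11, 5.08 and 6.54 for Pmaip1 and 3.73 and 2.75 for Bcl2.

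The replicate block called 1389 genes in all, with 0 apoptosome, 1 death receptor and 1 upstream gene, and Bcl2l1 at 0.10. Casp2 (-0.37), Tnfrsf1a (0.18), Ripk3 (-0.27), Tnfsf10 (-1.54) and Foxo3 (0.30) lost their calls with it at log2 fold changes within 0.01 of those without it. The groups share only replicate numbers. Over 9275 genes the deviations of same-numbered libraries correlated at -0.14, and with the pairing crossed 1468 genes were called, with 0 apoptosome and 1 death receptor gene, and Bcl2l1 at 0.096. The replicate block changed no call of a member.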
